A study of Mus musculus with 12 samples.

Results

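Expression of 10 imprinted genes, H19, Igf2, Igf2r, Peg3, Peg10, Mest, Snrpn, Cdkn1c, Dlk1 and Grb10, was examined in mouse gonads at E14.5. They were chosen by name among imprinted genes, and their 17 probes, of 41174 on the array, were found by the gene name that the array design gives. All 10 had a level among the 18666 genes that were tested, and all 17 probes were well above background on 12 of 12 arrays. The level of a gene is log2 of its signal minus log2 of the 75th percentile of signals on the same array, so that a level of 0 equals that percentile. Levels of different probes cannot be set against each other, so each gene is compared only with itself.

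There were 4 groups with 3 arrays each, all from embryos of mixed background whose mothers had been injected with tamoxifen at E9.5 and again at E10.5. The genotype of control testes was Smad4Flox/+ StellaMerCreMer Stra8+/-. The control ovaries differed in genotype, control ovary 1 being Smad4Flox/+ StellaMerCreMer Stra8+/-, control ovary 2 Smad4Flox/+ Stra8+/- and control ovary 3 Smad4Flox/Flox Stra8+/-. The Smad4 (Stella) ovaries were Smad4flox/floxMerCreMer Stra8+/−, and the double mutant (DKO) ovaries were Smad4flox/floxMerCreMer Stra8−/−. Every group other than the DKO ovaries was therefore heterozygous for Stra8. Stella (also named Dppa3) drives the tamoxifen-dependent Cre recombinase in germ cells, whereas RNA was taken from the whole gonad, in which germ cells and somatic cells were not separated. Fewer cells of a type and less RNA per cell cannot be told apart in such samples.

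An imprinted gene is transcribed mainly from the copy inherited from one parent, because its control region carries methylation that was set in the germ line of one parent and not of the other. These marks are erased in primordial germ cells before E14.5, then written again in the male germ line before birth and in oocytes after birth, while somatic cells of the gonad keep the marks that they inherited. Many imprinted genes act on growth: paternally expressed genes such as Igf2 mostly promote it, and maternally expressed genes such as Igf2r, Cdkn1c, Grb10 and H19 mostly restrain it. The arrays measured RNA from both parental copies together, so the levels below hold no information on which allele was transcribed.

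The probes of the genes on which the results turn are given by sequence, since what a level means depends on the stretch of RNA that was read. H19 and Dlk1 each had 2 probes on separate stretches, and the pair for Snrpn overlapped. Of the 10 genes, 5 lay on chromosome 7, where the nearest probes of H19 and Igf2 were 74.5 kb apart on the mm9 build. Positions are on mm9, sequences run 5′ to 3′, and capitals mark the bases at which the overlapping Snrpn probes differ.
H19 at chr7:149761769-149761828, minus strand: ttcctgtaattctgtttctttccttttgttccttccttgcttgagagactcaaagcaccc
H19 at chr7:149762018-149762165, minus strand: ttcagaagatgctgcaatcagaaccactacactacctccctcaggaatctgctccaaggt
Dlk1 at chr12:110698428-110698487, plus strand: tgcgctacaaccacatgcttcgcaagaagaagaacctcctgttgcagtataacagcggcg
Snrpn at chr7:67132347-67132406, minus strand: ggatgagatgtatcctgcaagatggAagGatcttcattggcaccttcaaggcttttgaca
Snrpn at chr7:67132330-67132389, minus strand: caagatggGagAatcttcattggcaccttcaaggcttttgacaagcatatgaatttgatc

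The second H19 probe is 60 bases long but its position in the array design spans 148 bases of the genome. The Snrpn probes shared 43 bases with 2 differences, A26G and G29A, counted from 1 at the 5′ end of the Snrpn probe listed first. Snrpn has a near-identical paralog, Snrpb, whose RNA may bind to these probes, so the levels of Snrpn are uncertain in that respect. The other probe of Dlk1 mapped over 37 of its 60 bases, at chr12:110698667-110698703, and the only probe of Igf2r over 11 of 60, at chr17:12875253-12875263, in the array design. The remaining genes were read at chr7:150644753-150644812 (Cdkn1c), chr6:4709867-4709926 (Peg10) and chr6:30698279-30698338 (Mest), and with more than 1 probe each for Grb10 on chromosome 11, Peg3 on chromosome 7 and Igf2 on chromosome 7.

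The arrays were on 3 slides, which were also the scans. Slide 1 held the control testes and control ovary 1, slide 2 held control ovaries 2 and 3 and DKO ovaries 1 and 2, and slide 3 held the Smad4 (Stella) ovaries and DKO ovary 3. The 75th percentile ranged from 476 to 997 intensity units, and between 58.8% and 70.7% of probes were well above background, with control ovary 1 lowest in both. Over all genes, arrays of 1 group correlated at r between 0.975 and 0.994. Whether arrays of a group came from separate embryos is not given in the sources used here, so the p-values measure only the spread between these samples. Stra8 was between 6.16 and 6.71 in control ovaries and between 5.28 and 5.61 in DKO ovaries (difference -1.02, adjusted p = 0.0027, limma), whereas Smad4 was between 1.96 and 2.42 in all groups.

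Cdkn1c encodes the cyclin-dependent kinase inhibitor p57 and is expressed from the maternal copy. Control testes had levels of 3.78, 3.15 and 2.95, while control ovaries had 5.23, 5.96 and 6.01. In Smad4 (Stella) ovaries Cdkn1c stood at 5.82, 6.14 and 5.73, and in DKO ovaries at 5.22, 5.86 and 5.79. All 9 ovaries lay above all 3 testes, and the 3 ovary groups overlapped. Testes were 5.43-fold lower than control ovaries (log2 difference -2.44 ± 0.28, SE, n = 3 per group, limma adjusted p = 4.65e-05), a difference larger than the spread between replicates. Only 4.44% of all genes tested differed more between those groups.

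H19 is a maternally expressed non-coding RNA that shares enhancers with Igf2. Its level was 3.20, 3.39 and 3.40 in testes, 3.90, 4.55 and 3.95 in control ovaries, 4.55, 4.54 and 4.73 in those of Smad4 (Stella), and 3.64, 4.31 and 4.48 in DKO ovaries. Every testis was below every ovary, and testes were 1.74-fold lower than control ovaries (-0.80 ± 0.22, limma adjusted p = 0.0132). Both H19 probes printed above gave this difference, at -0.81 and -0.79.

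Igf2r encodes the receptor that carries IGF2 to lysosomes for breakdown. It was at 3.19, 3.03 and 2.82 in testes, 3.12, 3.12 and 3.87 in control ovaries, 3.94, 3.79 and 3.79 after Smad4 deletion, and 3.61, 3.49 and 3.99 in DKO ovaries. Testes and control ovaries overlapped, and their difference of -0.36 did not pass the test (limma adjusted p = 0.187). Both mutant ovary groups lay above all testes.

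Grb10 encodes an adaptor that dampens signalling from the insulin and IGF receptors. Its level was 0.73, 0.60 and 0.46 in testes against -0.33, 0.23 and 0.44 in control ovaries, 0.26, -0.02 and -0.06 after Smad4 deletion, and -0.21, 0.01 and 0.13 in DKO ovaries. All testes were above all ovaries, by a narrow margin over control ovary 3. The difference of 0.48 between testes and control ovaries missed the threshold (limma adjusted p = 0.0555). Of its probes, the one at chr11:11830965-11831024 differed by 0.54 ± 0.12 (limma adjusted p = 0.0036), which was under 1.5-fold. The others differed by 0.59 ± 0.29 and 0.32 ± 0.22, with limma adjusted p-values of 0.118 and 0.267.

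Among the paternally expressed genes, Dlk1 had the largest difference between the control groups. It encodes a transmembrane protein with EGF-like repeats related to the Notch ligands. Testes were at 4.74, 4.65 and 4.64, with an SD of 0.053, and control ovaries at 2.86, 3.56 and 3.68. Smad4 (Stella) ovaries stood at 3.65, 3.26 and 3.31 and the DKO ovaries at 2.97, 2.91 and 3.81, so that no ovary reached a testis. The fold over control ovaries was 2.48 (1.31 ± 0.26, limma adjusted p = 0.0020). The Dlk1 probe whose sequence is printed rose by 1.73 ± 0.31, and the other one by 0.89 ± 0.24, both past the test with limma adjusted p-values of 0.00104 and 0.0117.

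Peg10, derived from a retrotransposon and needed in the placenta, was at -4.17, -4.43 and -5.12 in testes, -3.91, -2.70 and -3.26 in control ovaries, -3.16, -3.02 and -3.40 after Smad4 deletion, and -4.09, -3.01 and -3.53 in DKO ovaries. Testes lay below all ovaries, narrowly so for testis 1 and DKO ovary 1. They were 2.44-fold lower than control ovaries (-1.28 ± 0.35, limma adjusted p = 0.0124). Without testis 3 the difference was -1.01 and missed the threshold, with a limma adjusted p of 0.0536. Under normexp background correction the difference was -0.31 (limma adjusted p = 0.815). The level of testis 3 was near the lowest one well above background on that array, -5.80.

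Igf2, the growth factor itself, was at 5.10, 4.95 and 4.74 in testes and 5.13, 5.38 and 5.38 in control ovaries. Smad4 (Stella) ovaries stood at 5.28, 5.19 and 5.32 and the DKO ovaries at 5.04, 4.98 and 5.31, which overlapped with the testes. Testes and control ovaries did not overlap, but the difference of -0.36 ± 0.13 (limma adjusted p = 0.0383) was under 1.5-fold.

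Peg3, which encodes a zinc finger protein, was at 1.42, 1.01 and 0.81 in testes, 1.21, 2.03 and 2.02 in control ovaries, 1.94, 2.02 and 1.77 after Smad4 deletion, and 1.38, 2.28 and 1.68 in DKO ovaries. Control ovary 1 and DKO ovary 1 overlapped with the testes, and the difference of -0.67 ± 0.28 did not pass the test (limma adjusted p = 0.0670). Its probes pointed the same way but fell on either side of the threshold. The one at chr7:6658774-6658833 passed with -0.89 ± 0.31 (limma adjusted p = 0.0352). The one at chr7:6660440-6660499 missed with -0.46 ± 0.25 (limma adjusted p = 0.158).

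Snrpn encodes a core protein of spliceosomal particles. Its level was -1.77, -1.69 and -1.44 in testes, -1.72, -1.42 and -1.80 in control ovaries, -1.10, -1.43 and -1.33 after Smad4 deletion, and -1.58, -0.79 and -0.96 in DKO ovaries. The 2 control groups covered the same range, with a difference of 0.01 and a 95% interval from -0.43 to 0.46. Mest, which encodes a protein of the alpha/beta hydrolase family, varied least over the 12 arrays, from 5.87 to 6.38. Its testis to ovary difference was -0.19, with an interval from -0.49 to 0.12.

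**Figure D1:**
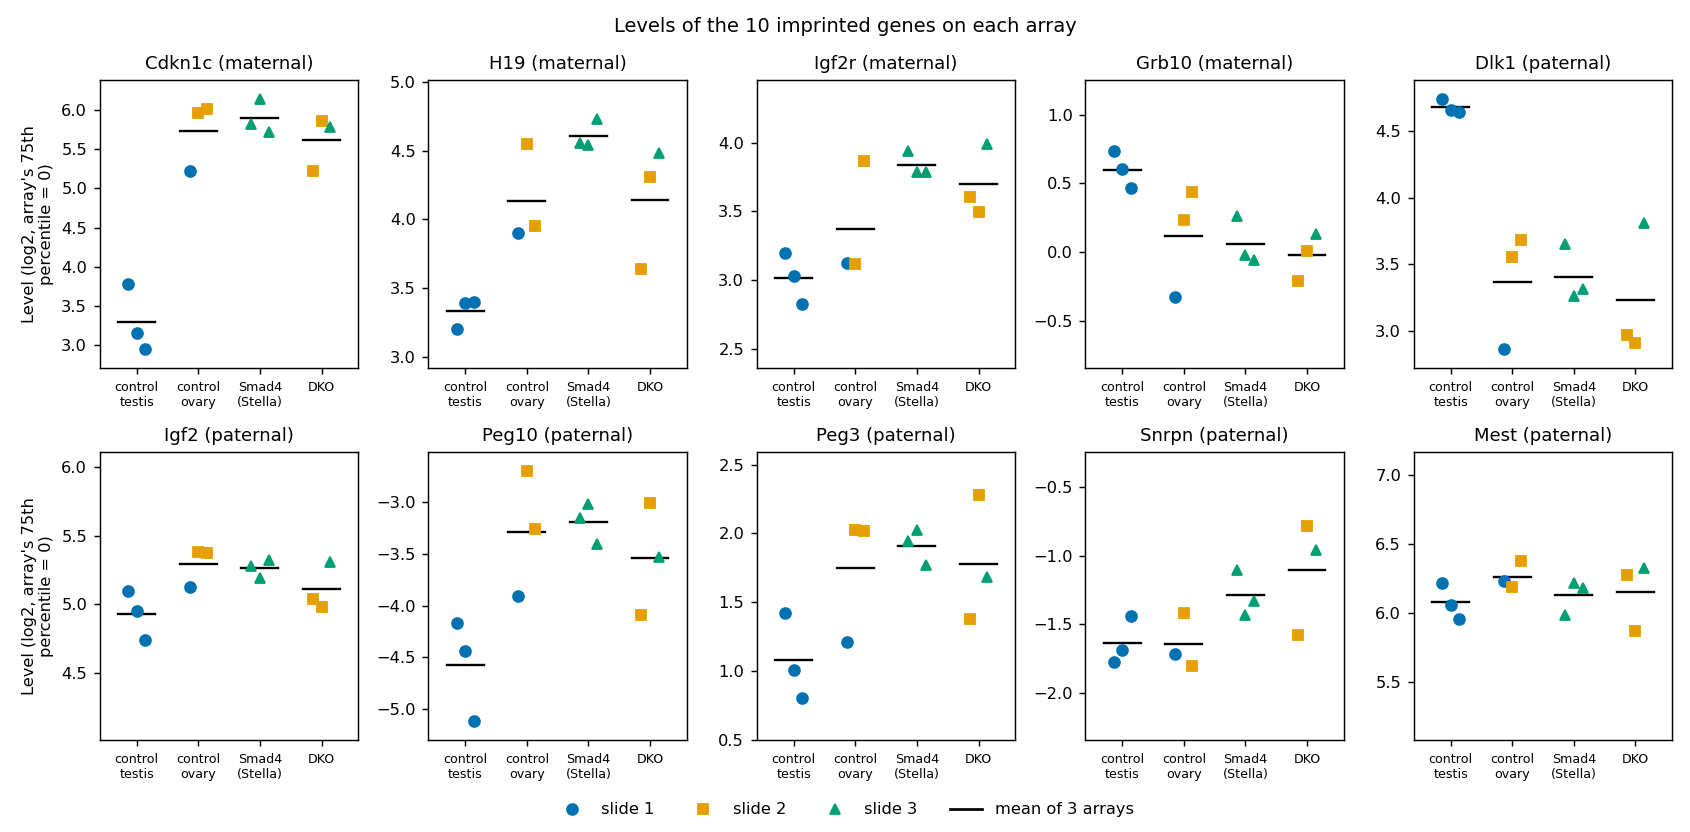
The level of each of the 10 genes on each of the 12 arrays, by group, with the mean of the 3 arrays. The vertical axis is log2 with the array's 75th percentile at 0, on a separate scale per gene. Testes lie apart from all ovaries for Cdkn1c, H19 and Peg10, which are lower there, and for Dlk1 and Grb10, which are higher there.

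The comparison of control testes with control ovaries asks which genes differ between the sexes when meiosis has begun in the ovary and male differentiation in the testis. Here 4 of the 10 genes were called, which means a Benjamini-Hochberg adjusted p under 0.05 over all genes and a change of at least 1.5-fold, against 34% of all genes. Dlk1 was the 1 gene higher in testes (17.2% of all genes were) and Cdkn1c, H19 and Peg10 were the 3 lower (16.7%). The share of members called was thus close to the background. Arrays of these groups did not overlap for 6 genes, these 4 with Igf2 and Grb10, against 58.4% of all genes. For 3 arrays against 3, an exact two-sided permutation test of a single gene cannot give a p below 0.1. The median difference over the 10 genes was -0.36, beside 0.02 over all genes tested.

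Only slide 1 held both control groups, the testes with control ovary 1 alone. On that slide the testes differed from control ovary 1 by -1.93 for Cdkn1c, 1.81 for Dlk1, 0.93 for Grb10, -0.66 for Peg10 and -0.57 for H19. With slide as a block in limma, Cdkn1c and Dlk1 were called as before, and Grb10 was called too (0.93, adjusted p = 0.0045). H19 and Peg10 were no longer called, with limma adjusted p-values of 0.148 and 0.289.

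**Figure D2:**
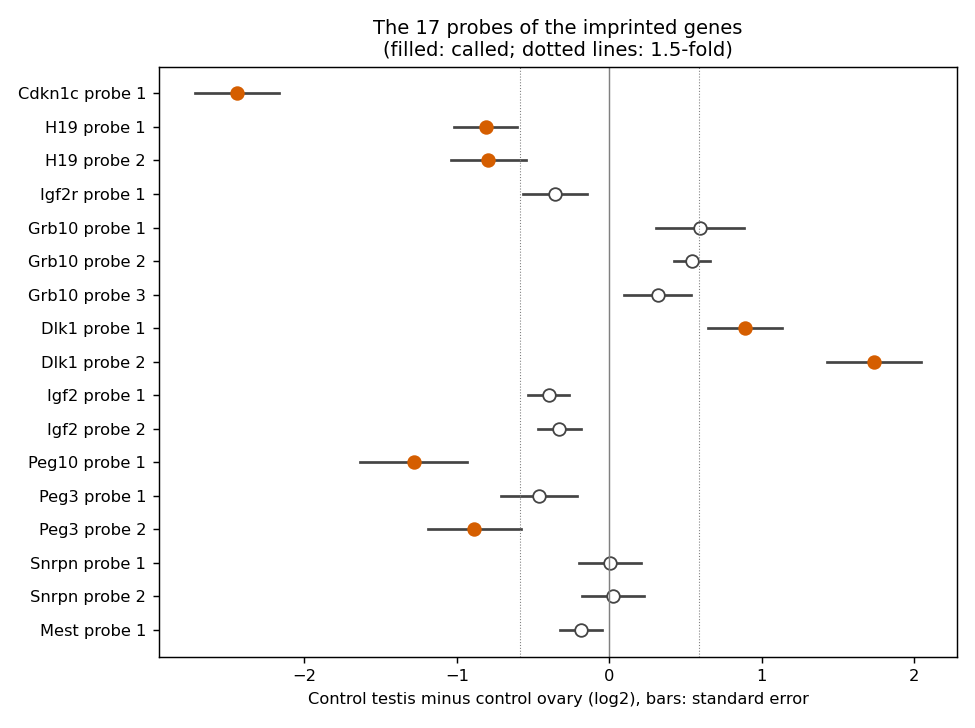
The difference between control testes and control ovaries (horizontal axis, log2) for each of the 17 probes, with the standard error as a bar and called probes filled. Probes of 1 gene point the same way, and the 2 probes of Peg3 fall on either side of the test's threshold.

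Markers of some cell types of the gonad moved with this comparison. The summed signal of 6 Sertoli markers, relative to the 75th percentile, was between 98.5 and 110 in testes and between 1.70 and 2.96 in the 9 ovaries, where Amh was not above background in any Smad4 (Stella) ovary. The sum of 5 measured fetal Leydig markers was between 69 and 73.5 in testes and between 1.67 and 3.06 in ovaries. The sum of 6 pregranulosa markers was between 13 and 16.0 in testes, with Foxl2 not above background there, and between 65.4 and 84.8 in ovaries. The 7 germ cell markers were Ddx4, Dazl, Pou5f1, Dppa3, Mael, Tdrd1 and Sycp3. Their sum was between 85.9 and 105 in testes and between 89.8 and 111 in control ovaries. Yet 3 of the 7 were called higher and 2 lower in testes, with differences from -3.63 to 2.61. Dppa3 had a mean level of 5.22 in testes and 2.89 in control ovaries, so similar sums do not show similar germ cell content. Of 7 stromal and mesenchymal markers, 5 were called higher in testes and none lower (median 0.77), while their sums overlapped, between 36.8 and 47.4 in testes and between 20.1 and 53.2 in control ovaries. Of 5 erythroid markers 3 were called lower in testes, with sums between 13 and 14.7 against 18.0 and 24.3 over the 4 that were summed. The sums of 6 mesonephric markers were between 1.29 and 1.5 against 1.54 and 3.26, although 2 of the 6 were called higher and 1 lower in testes. Of 6 endothelial markers 1 was called lower in testes and 0 higher. Their sums were between 11.5 and 15.5 in testes and between 12.6 and 15.6 in control ovaries. Of 6 macrophage markers 0 were called, with sums between 1.23 and 1.38 against 1.44 and 1.68. Control ovary 3 stood apart in skeletal muscle markers, with a sum of 5.32 where the other 11 arrays were at 1.08 or below. Without control ovary 3, Cdkn1c, Dlk1, H19 and Peg10 were called as before and Grb10 too (0.65, limma adjusted p = 0.0204). The part of each cell type in the levels of the imprinted genes was not tested.

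Deletion of Smad4 alone was compared with control ovaries next. None of the 10 genes was called, where 0.279% of all genes were, and no gene had separate groups of arrays, against 28.1% of all genes. At an unadjusted p under 0.05 only Igf2r passed in limma (0.47, interval from 0.01 to 0.93, adjusted p = 0.249). The largest other differences were 0.47 for H19 (interval from -0.02 to 0.97) and 0.36 for Snrpn (from -0.09 to 0.80). For Cdkn1c the difference was 0.16 (from -0.45 to 0.77) and for Dlk1 0.04 (from -0.54 to 0.62), while for Mest the interval ran from -0.44 to 0.17. The median over the 10 genes was 0.13, beside -0.02 over all genes. The methods' t-test called none either, with or without adjustment. These groups shared no slide, and are linked across slides only through the DKO ovaries. With slide as a block Dlk1 was at -1.08 (limma adjusted p = 0.0937) and Cdkn1c at -0.34, and the signs of H19 (-0.15) and Igf2r (-0.10) turned, with none called.

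Loss of Stra8 on top of Smad4 left the 10 genes uncalled against control ovaries as well, where 14.7% of all genes were called. Groups of arrays overlapped for all 10, against 32.9% of all genes whose groups did not. Snrpn had the largest difference, 0.54 ± 0.20, and was the only gene with an unadjusted p under 0.05 (limma adjusted p = 0.0821, interval from 0.09 to 0.98). Without DKO ovary 1, Snrpn was called (0.77, limma adjusted p = 0.0080). The intervals of the genes that differed between the sexes were -0.72 to 0.50 for Cdkn1c, -0.72 to 0.44 for Dlk1, -0.49 to 0.51 for H19 and -1.04 to 0.53 for Peg10. The methods' t-test called none of the 10, with or without adjustment. Their median was -0.11, beside 0.00 over all genes.

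Slide 2 held 2 arrays of each of these groups. On it the DKO ovaries differed from the control ovaries by -0.68 for Dlk1, -0.57 for Peg10, -0.45 for Cdkn1c, -0.44 for Grb10 and 0.43 for Snrpn. With slide as a block, Dlk1 was called lower in DKO ovaries (limma adjusted p = 0.0110), which the comparison over all arrays did not show. DKO ovary 3, on slide 3, had the highest Dlk1 level of all DKO and control ovaries, at 3.81, and control ovary 1, on slide 1, the lowest, at 2.86.

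**Figure D3:**
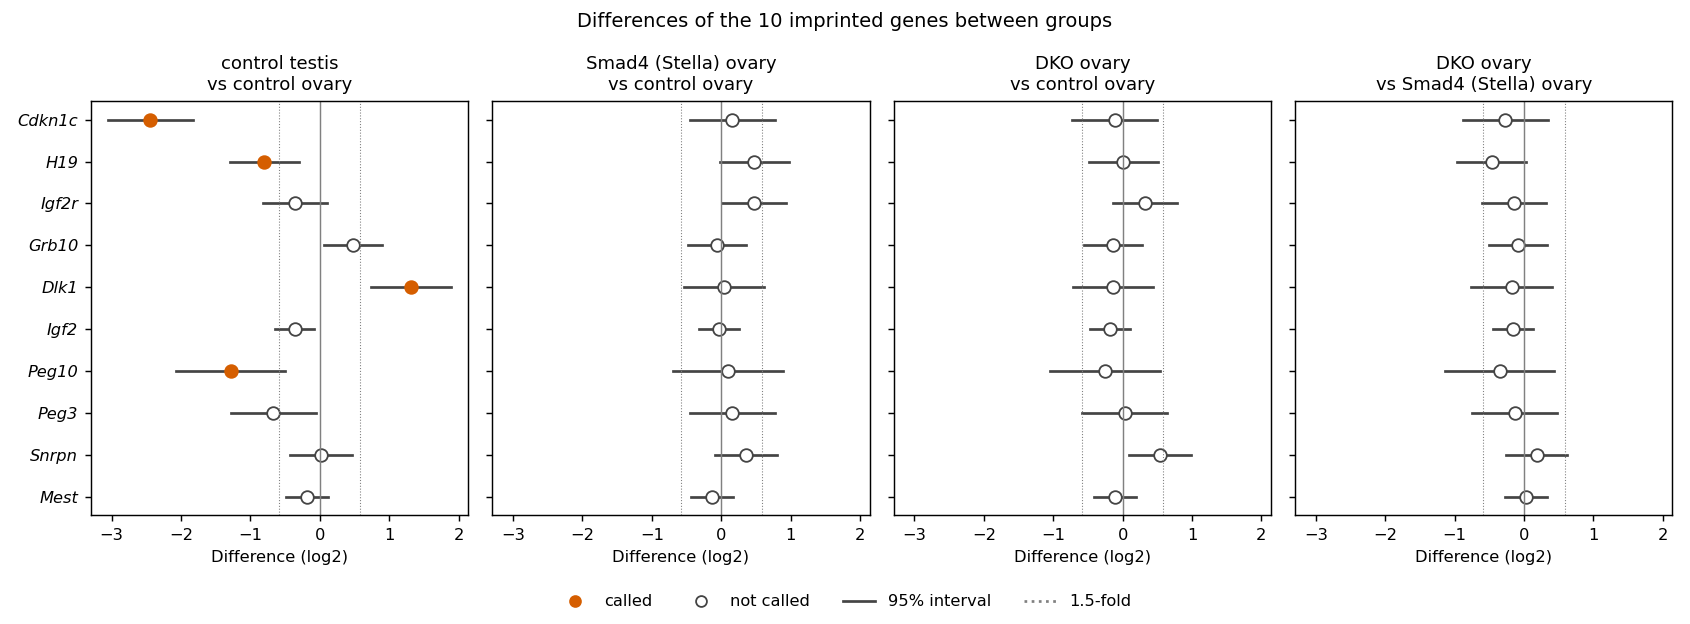
The difference of each of the 10 genes in 4 comparisons (horizontal axes, log2), with 95% intervals from the linear model, 1.5-fold marked by dotted lines and called genes filled. Filled points occur only in the comparison of control testes with control ovaries.

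Between DKO and Smad4 (Stella) ovaries, which differ by the Stra8 alleles, none of the 10 genes was called, against 8.42% of all genes. H19 alone had separate groups of arrays (31.2% of all genes did), the DKO ovaries being lower by 0.47 without passing the test (limma adjusted p = 0.22), and on slide 3 its difference was -0.13. At an unadjusted p under 0.05, 0 of the 10 genes passed in limma, and the methods' t-test called 0. Differences were negative for 8 of the 10 genes, and none passed.

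DKO ovaries were then compared with control testes. Of the 10 genes 6 were called, against 25.8% of all genes, with 4 higher in DKO ovaries (12.7% of all genes) and 2 lower (13.1%). Cdkn1c was 5.03-fold higher in DKO ovaries (2.33 ± 0.28, limma adjusted p = 0.00011), H19 1.75-fold higher, Igf2r 1.60-fold higher and Peg10 2.04-fold higher. Dlk1 was 2.73-fold lower (-1.45 ± 0.26, limma adjusted p = 0.00167) and Grb10 1.54-fold lower. Separate groups of arrays were seen for the same 6 genes, against 50.5% of all genes. The testes are shared with the comparison above, so the 2 sets of values are not independent.

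The calls of H19, Igf2r, Peg10 and Grb10 against DKO ovaries were near the threshold, with limma adjusted p-values of 0.0164, 0.0258, 0.0426 and 0.0246. Only 3 genes were called without testis 2, DKO ovary 2 or DKO ovary 3, and 4 without testis 1 or testis 3. With slide as a block the differences of H19 and Peg10 fell to 0.29 and 0.09, and only Dlk1 and Grb10 were called, Cdkn1c standing at 1.48 with a limma adjusted p that just missed the threshold. DKO ovaries and testes shared no slide.

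Over the 4 groups at once, limma's F test called 5 of the 10 genes, against 54.3% of all genes. Without testis 2 or testis 3 it called 3. The adjusted p-values were 6.9e-05 for Cdkn1c, 0.0027 for Dlk1, 0.0048 for H19, 0.0228 for Peg10 and 0.0243 for Igf2r. For these genes except Igf2r the testes stood apart at one end, and no difference between ovary groups passed the test. Igf2r means were 3.01 in testes, 3.37 in control, 3.70 in DKO and 3.84 in Smad4 (Stella) ovaries, with neighbours in this order not separated.

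Replicates of 1 group varied more for some of these genes than for a typical gene. The SD within groups was 0.484 for Peg10, 0.371 for Cdkn1c, 0.370 for Peg3 and 0.351 for Dlk1, beside a median of 0.205 over all genes, and it was 0.163 for Mest and 0.149 for Igf2. Control ovary 1 was the lowest control ovary for 7 of the 10 genes, testis 3 the lowest testis for 8 and DKO ovary 1 the lowest DKO ovary for 6. Peg3 and Peg10 moved together over the 12 arrays (r = 0.95, and 0.92 after group means were removed). Cdkn1c moved with both, at 0.87 with Peg3 and 0.91 with Peg10 over the arrays. Dlk1 moved with Grb10 (0.92, and 0.82 within groups). The neighbours Igf2 and H19, which share enhancers, had r = 0.69 over the arrays and 0.33 within groups. Such correlations share the scaling factor, the slide and the cell makeup of each array, and are given as descriptions.

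**Figure D4:**
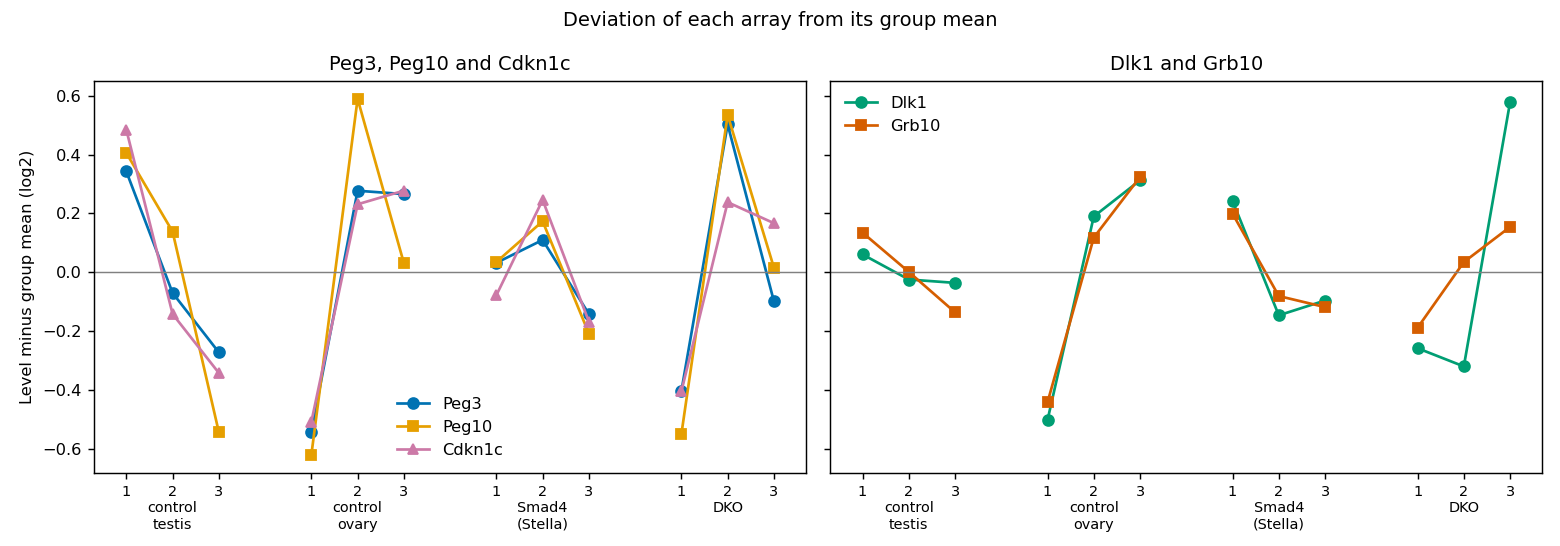
The level of each array minus its group mean (vertical axis, log2) for Peg3, Peg10 and Cdkn1c and for Dlk1 and Grb10, by group and replicate, with lines joining the arrays of a group to guide the eye. Control ovary 1 is the lowest control ovary in both panels.

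The genes whose level most resembled that of an imprinted gene over the 12 arrays, among all genes tested, were listed for each member that was called. For Cdkn1c these were Zc3h6, Magi2 and Csgalnact1, with r = 0.992, 0.991 and 0.989. For Dlk1, the Wnt receptor gene Fzd2 (0.990) and Kdelr3 (0.979) were among the first 3. Grb10 was closest to the collagen genes Col1a2 (0.979) and Col5a2 (0.972) and to Plagl1 (0.967), an imprinted gene for a zinc finger protein. Peg10 was closest to Gata6 (0.978), Pigh (0.965) and Sowaha (0.961), H19 to Prag1 (0.973) and the keratin gene Krt8 (0.966), and Igf2r to Zfp945, H2-DMb1 and Fubp3 at 0.942, 0.937 and 0.935. These are likenesses over 12 arrays and nothing more.

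A longer list of 54 other imprinted genes, 46 of which were measured well enough to be tested, was read in the same way. Between control testes and control ovaries, 7 were called higher and 7 lower in testes, with a median of -0.01, where 34% of all genes were called. Kcnq1, a potassium channel gene of the same imprinted region as Cdkn1c, was the largest called fall. Its level was -3.69, -3.80 and -3.89 in testes and 0.41, -0.10 and -0.07 in control ovaries, a 14.6-fold difference (limma adjusted p = 9.27e-08). Phlda2, from that region too and a brake on placental growth, was 6.38-fold lower in testes, and Dio3, which inactivates thyroid hormone and lies in the domain of Dlk1, was 4.05-fold lower, whereas Dlk1 was higher. Inpp5f fell by 0.94, and Rasgrf1 passed the test as lower but was above background in 1 of 3 testes, so no size is given. The largest called rises in testes were Sfmbt2 (2.10), Dhcr7 (1.84), an enzyme of cholesterol synthesis, Nap1l5 (1.65, above background in 2 of 3 control ovaries) and Asb4 (0.94). Th, for tyrosine hydroxylase, was not well above background in any control ovary and at least 1.37-fold higher in testes (limma adjusted p = 0.000976), a bound set by the lowest signal well above background on each ovary array.

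In DKO ovaries 3 of these 46 genes were called higher and 4 lower than in control ovaries, where 14.7% of all genes were called. Sfmbt2, which encodes a Polycomb group protein, rests on 1 of its 3 probes, the only one kept by the background filter. Its level reached 0.50, 1.15 and -0.31 in DKO ovaries. It was at -1.19, -1.85 and -2.46 in control ovaries, -0.93, -1.57 and -1.64 after deletion of Smad4 alone, and -0.33, 0.50 and 0.63 in testes. The DKO ovaries thus lay in or above the range of testes and above every other ovary, by 4.85-fold over control ovaries (2.28 ± 0.43, limma adjusted p = 0.00338) and 3.55-fold over Smad4 (Stella) ovaries (1.83 ± 0.43, limma adjusted p = 0.0200). Dhcr7 was 1.64-fold higher. The DKO ovaries had Phlda2 at 0.29, -0.53 and -0.33 against 1.84, 0.75 and 1.12 in control ovaries (2.70-fold lower, limma adjusted p = 0.0130), and the Smad4 (Stella) ovaries fell between at 0.61, 0.55 and -0.29. Ins2 fell by 0.94 and Magel2 by 0.64. Rasgrf1 passed as lower and Th as higher, but Rasgrf1 was above background in 1 of 3 DKO ovaries, and Th in 1 of 3 DKO ovaries and no control ovary, so no fold is given. Without DKO ovary 2, 4 genes were called, Dhcr7, Ins2, Rasgrf1 and Sfmbt2, and Phlda2 was not called with slide as a block either. The summed germ cell markers were between 109 and 139 in DKO ovaries and between 89.8 and 111 in control ovaries. Of the 7 markers, 3 were called higher and 1 lower. Among them was Dppa3, with a mean level of 5.22 in DKO and 2.89 in control ovaries, which enters the sums. The sums are therefore no measure of germ cell content alone, and the part of these markers in the differences above was not tested.

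Against Smad4 (Stella) ovaries, 2 of the 46 were called higher in DKO ovaries, Sfmbt2 and Th, and 2 lower, Rasgrf1 and Ins2 (-0.64), where 8.42% of all genes were called. Rasgrf1 was above background in 1 of 3 DKO ovaries, and Th in 1 of 3 DKO ovaries and no Smad4 (Stella) ovary. Only 1 or 2 of these calls were made without DKO ovary 1, DKO ovary 2, Smad4 (Stella) ovary 2 or Smad4 (Stella) ovary 3, or with slide as a block, and Sfmbt2 was not among them. Between Smad4 (Stella) and control ovaries none was called, and 1, Magel2, was without DKO ovary 1, whose removal changes the shared estimate of the spread. Against testes, 8 were higher in DKO ovaries, among them Kcnq1 (3.92), Dio3 (2.13), Phlda2 (1.24), Atp10a (1.20) and Inpp5f (1.11), and 7 were lower, where 25.8% of all genes were called, among them Nap1l5 (-1.42, above background in 2 of 3 DKO ovaries), Dhcr7 (-1.13), Ins2 (-1.11), Plagl1 (-0.90) and Asb4 (-0.79). Sfmbt2 was not called in that comparison, and 9 genes in all were called without testis 1 or without testis 2.

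**Figure D5:**
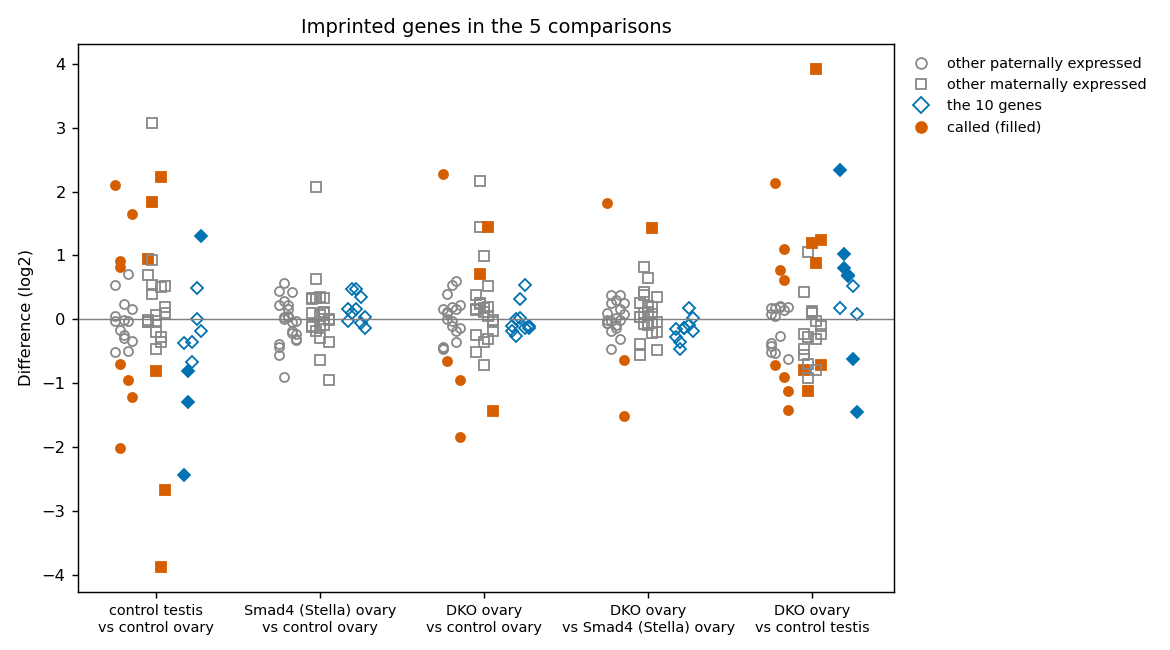
The difference of each imprinted gene (vertical axis, log2) in the 5 comparisons, with circles for other paternally expressed genes, squares for other maternally expressed genes and diamonds for the 10 genes, filled where called. In the comparisons among ovaries the diamonds lie between -0.47 and 0.54. Sfmbt2 stands at 2.28 and 1.83 in the comparisons of DKO ovaries with other ovaries. Uncalled maternally expressed genes reach 2.16 for DKO and 2.06 for Smad4 (Stella) against control ovaries.

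Of 13 tested genes of the IGF pathway, none was called in any comparison among ovaries. The shares of all genes called there were 14.7% (DKO against control), 0.279% (Smad4 (Stella) against control) and 8.42% (DKO against Smad4 (Stella)). Between control testes and control ovaries 3 of the 13 were called, where 34% of all genes were. Testes had less Igfbp2 (-1.52 against control ovaries) and Igfbp5 (-0.74) and more Igfbp3 (0.76), which encode proteins that bind IGFs outside the cell. Against DKO ovaries 4 of the 13 were called, where 25.8% of all genes were. They included the same 3 genes, with the same order of testis and ovary. Igf2bp1, an RNA-binding protein gene, was called as well, 1.58-fold higher in DKO ovaries.

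Of 16 tested genes that write, erase or protect imprints, 4 were called higher and 1 lower in testes than in control ovaries, where 34% of all genes were called. Dnmt3l, the cofactor with which methylation is set in male germ cells, was at 1.65, 2.53 and 2.18 in testes and -4.95, -4.43 and -4.86 in control ovaries, 117-fold apart (limma adjusted p = 7.6e-06). Dppa3 (2.34), Dnmt3a (0.94) and Trim28 (0.67) were the other rises, and Hells (-1.69) the fall. In DKO ovaries Dppa3 rose by 2.33 over control ovaries (limma adjusted p = 0.00334), Prmt7 by 0.77 and Dnmt3b by 0.76, and Hells fell by 0.82. These were 4 of the 16, where 14.7% of all genes were called. Dppa3 is the gene that Stella names and from which Cre is driven here, and control ovary 1, with Cre, was at 4.11 against 2.19 and 2.35 in the control ovaries without it; the part of Cre in the level of Dppa3 was not tested. Among the mutants, Dnmt3l was at -2.19, -3.65 and -4.31 in DKO and at -4.54, -6.80 and -5.85 in Smad4 (Stella) ovaries (limma adjusted p = 0.0295, above background in 1 of 3 Smad4 (Stella) ovaries, so no size is given). It stayed 45.4-fold below testes. Kdm1b (0.72) and Prmt7 (0.59) were also higher in DKO than in Smad4 (Stella) ovaries. With Dnmt3l, 3 of the 16 were called there, where 8.42% of all genes were. Against testes, Hells was higher in DKO ovaries (0.87) and Tet2 lower (-0.71). Counting Dnmt3l, 3 of the 16 were called against testes, where 25.8% of all genes were.

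The promoter windows given by RefSeq on GRCm38.p6, each of 300 bases around a start site, held CpG in very different number. The CpG count was 45 and 9 for the 2 starts of Grb10, 34 for Igf2r, 13 for Peg3, 9 for Dlk1, 8, 17 and 17 for Mest, between 2 and 24 for the 4 starts of Igf2, and between 2 and 7 for those of Snrpn, where the median over 32851 windows was 7. CpG is written CG on either strand, and the counts say nothing about methylation, which was not measured.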

How the data were processed

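RNA of E14.5 gonads was hybridised to 12 single-colour Agilent arrays, 3 per group, and the sample labels gave the groups. For each array the authors deposited the scanner software's output, in which the processed intensity is already corrected for background. They also deposited a table of intensities that differed from these by at most 0.497% and was neither scaled nor logged. Levels were log2 of the deposited processed intensity, less log2 of the array's 75th percentile taken without control spots. Outlier spots were dropped (4 spots of 1 Igf2 probe among the members). Spots of a probe were averaged, then probes of a gene, after probes had been kept that were well above background on all arrays of some group (27311 probes and 18666 genes). No member spot was saturated. Accessions gave the symbols of 21381 probes. The number of arrays limits the precision.

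The model was limma 3.58.1 (R 4.3.3, data.table version 1.17.8), fitted once over all 12 arrays with Benjamini-Hochberg adjustment, and a call needed an adjusted p under 0.05 and 1.5-fold. The scripts were tested on simulated data. The genes and lists were chosen with earlier results of these data known. Named were all 10 genes, up to 5 called rises and falls per comparison from the other lists, the 3 genes most like each called member, and Stra8 and Smad4. Alternatives were other scalings, background correction, filters, thresholds, the brightest probe, slide and replicate blocks, the methods' t-test and leaving out arrays.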

Additional observations from a re-analysis of the deposited data

How the results depend on the processing

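Cdkn1c and Dlk1 were called between control testes and control ovaries under every alternative run, and no called difference of the 10 genes changed sign. Of the 10 genes, 2 were called between control testes and control ovaries with the deposited table without scaling, with normexp and with the methods' t-test after Benjamini-Hochberg, 3 at 2-fold or with slide as a block, 5 at any fold, and 4 with all arrays in the other alternatives. Between DKO ovaries and control testes, 2 were called with the deposited table, normexp or slide as a block, and 3 without a filter, at 2-fold or with that t-test, 5 with only the groups compared or the t-test unadjusted, and 6 with all arrays in the other alternatives. Between DKO and control ovaries 1 was called with normexp (Snrpn) and 1 with slide as a block (Dlk1), and the F test called 2 with normexp and 3 with slide as a block. Of the other imprinted genes, the deposited table called 2 between DKO and control ovaries, 1 between DKO and Smad4 (Stella) ovaries and 8 between DKO ovaries and testes. Normexp called 3, 0 and 3 in these comparisons and 6 between testes and control ovaries, and the table without a filter and slide as a block each called 2 between DKO and Smad4 (Stella) ovaries. Leaving out 1 array, the genes called among the 10 ranged from 0 to 1 (DKO and control ovaries), 0 to 0 (Smad4 (Stella) and control ovaries), 3 to 5 (testes and control ovaries), 0 to 0 (DKO and Smad4 (Stella) ovaries), 3 to 7 (DKO ovaries and testes) and 3 to 7 (F test), and among the others from 4 to 10, 0 to 1, 13 to 17, 1 to 4 and 9 to 16. Whether replicate numbers pair the samples is not given. Same-numbered arrays correlated between -0.18 and 0.15 and differently numbered ones between -0.17 and 0.14, which cannot decide it. With the replicate block the counts of the 10 genes called were 0, 0, 4, 0 and 6. The cause of these shifts was not tested.

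Differences that changed sign were all uncalled. DKO against control ovaries, they were Mest 0.075, Dlk1 0.047, Cdkn1c 0.072 and Grb10 0.045 with the deposited table, Peg3 -0.21, Peg10 0.46, H19 -0.24 and Grb10 0.10 with normexp, H19 -0.062 with the brightest probe, and Peg3 -0.19 and H19 -0.28 with slide as a block. Smad4 (Stella) against control ovaries, they were Igf2 0.40, Mest 0.295 and Grb10 0.37 with the deposited table, Igf2 0.023 with quantile normalization, Peg10 -0.049 with normexp, Dlk1 -0.070 and Grb10 0.10 with the brightest probe, and Peg10 -0.24, Dlk1 -1.08, H19 -0.15, Igf2r -0.10 and Cdkn1c -0.34 with slide as a block. DKO against Smad4 (Stella) ovaries, they were Mest -0.22 and Snrpn -0.062 with the deposited table, Peg10 0.51, Mest -0.18 and Grb10 0.17 with normexp, and Igf2 0.044, Dlk1 0.40, Igf2r 0.15 and Grb10 0.071 with slide as a block. DKO ovaries against testes, they were Mest -0.11 with normexp and Igf2 -0.17, Peg3 -0.064 and Mest -0.057 with slide as a block. Leaving out 1 array gave, DKO against control ovaries, Cdkn1c -0.36 to 0.092, Dlk1 -0.43 to 0.023, Grb10 -0.36 to 0.023, H19 -0.16 to 0.26, Mest -0.19 to 0.036, Peg10 -0.56 to 0.041 and Peg3 -0.24 to 0.23. Smad4 (Stella) against control ovaries it gave Cdkn1c -0.094 to 0.30, Dlk1 -0.21 to 0.20, Grb10 -0.28 to 0.11, Igf2 -0.11 to 0.013, Peg10 -0.21 to 0.39 and Peg3 -0.11 to 0.30. It gave Grb10 -0.16 to 0.016, Mest -0.058 to 0.17 and Peg3 -0.38 to 0.070 between DKO and Smad4 (Stella) ovaries, Mest -0.0063 to 0.22 between DKO ovaries and testes, and Snrpn -0.085 to 0.13 between testes and control ovaries. The deposited table shifted the median of all genes by 0.18, 0.43 and -0.24 in the comparisons of DKO with control, Smad4 (Stella) with control and DKO with Smad4 (Stella) ovaries and by 0.12 between DKO ovaries and testes, and normexp shifted it by 0.26 and 0.26 in the first and last comparison of ovaries, 0.11 between testes and control ovaries and 0.19 between DKO ovaries and testes.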
